A study of Macaca mulatta with 24 samples.

Results

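A set of 8 genes that encode proteins of plasma and of the extracellular matrix was followed in whole blood of rhesus macaques (Macaca mulatta) before and after total body irradiation. They are FGB and FGG, which encode the beta and gamma chains of fibrinogen, A2M (alpha-2-macroglobulin), FN1 (fibronectin), SERPINA1 (alpha-1-antitrypsin), ORM1 (the acute phase protein orosomucoid), ALB (serum albumin) and TF (transferrin). The 8 genes, of 15263 with a symbol on the array, were chosen by their signals on these same arrays, with results already known, and measured members were separated from absent ones by the same signals. Their levels and changes are therefore a description. The calls of the fit across all probes are listed for them, with nothing read from them. A p is given for the comparison of the sexes and, for FGB and A2M, where another setting ended a call. All 16 probes of these genes were read, of 43603 probes on the array; 6 genes carried their symbol in the scanner output, and ORM1 and TF were found through their RefSeq gene number.

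RNA of PAXgene blood, depleted of globin transcripts, was hybridized to 24 one-colour Agilent arrays of a rhesus design. Blood drawn before irradiation gave 7 arrays; after 4 Gy there were 4 arrays of day 3, 6 of day 5 and 7 of day 7. The animals carry the replicate numbers 1 to 4 (males) and 5 to 7 (females). Every irradiated animal received the same dose, and the labels give 0 Gy to the pre-irradiation blood, which served as the control. The differences compare groups of arrays without pairing, and counts of animals against their own earlier blood are given beside them. The labels name X-rays and day 0, whereas the paper's methods name cobalt gamma rays and blood drawn 3 days before exposure; by the ages and origin those methods give, the animals were adults of Chinese origin.

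In health most plasma proteins are made by hepatocytes and secreted, and the liver raises or lowers their synthesis in the acute phase response under IL6 and IL1. Blood cells carry some of the same transcripts: neutrophils and monocytes express SERPINA1, ORM1 can be made by myeloid cells, and FN1 and A2M are expressed by macrophages and endothelium. Fibrinogen is found inside platelets, which take it up from plasma. RNA of whole blood reports on the cells in the tube and not on protein in plasma. In such a bulk sample, fewer cells of a type and less RNA per cell cannot be told apart.

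The sequences of the probes that carry the results are given here because the 2 probes of FGB and of FN1 differed in signal or in pattern, and because each value below is the brightness of such a stretch. Each is 60 bases long, written 5′ to 3′ as in the scanner output, with positions on the rheMac2 assembly. The capitals in the A2M probe mark AATAAA, the hexamer of the common polyadenylation signal. Searched on the strand printed, it is held by 8.12% of all 43603 probes, and neither it nor ATTAAA (3.52% of probes) is in the other 6 probes shown.
FGB, brighter probe, chr5:146771769-146771828, plus strand: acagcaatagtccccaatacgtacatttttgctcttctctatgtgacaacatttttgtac
FGB, dimmer probe, chr5:146771956-146772015, plus strand: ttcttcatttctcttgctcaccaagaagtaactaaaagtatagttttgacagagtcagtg
A2M, chr11:9210785-9210844, minus strand: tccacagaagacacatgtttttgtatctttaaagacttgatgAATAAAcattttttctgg
FN1, brighter probe, chr12:79179927-79179986, minus strand: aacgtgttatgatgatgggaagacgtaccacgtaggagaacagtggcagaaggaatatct
FN1, dimmer probe, chr12:79246345-79247367, minus strand: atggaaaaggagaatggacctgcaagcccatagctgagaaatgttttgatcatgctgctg
SERPINA1, brighter probe, chr7:157608006-157609300, minus strand: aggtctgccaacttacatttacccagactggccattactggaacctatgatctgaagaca
ORM1, chr15:21795859-21795918, minus strand: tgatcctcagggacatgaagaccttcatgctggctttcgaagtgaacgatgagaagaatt

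The dimmer FN1 probe covers 1023 bases of the genome and the brighter SERPINA1 probe 1295 bases, so each spans at least 1 intron and reads spliced RNA. The other 5 lie on 1 unbroken stretch of 60 bases. On the minus strand the dimmer FN1 probe lies upstream of the brighter one, that is, nearer to the start of the gene. GC content was 30.0% in the A2M probe, 36.7% and 35.0% in the FGB probes and 45.0% in the FN1, brighter SERPINA1 and ORM1 probes, against a median of 43.3% over all probes. ORM1 has a near-identical neighbouring copy, ORM2, in primates; no probe is named ORM2 here, and the ORM1 signal may include it.

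Values are normalized signals, the background-subtracted brightness after each array was scaled to the median array. The scanner software marks whether a spot is well above background, and a probe was tested where this held on at least 4 of the 24 arrays, which 27133 probes did. On single arrays 48.3 to 61.2% of probes met it. Day 7 replicate 2 was the dimmest array, with a median processed signal of 16.7 against 30.9 to 105.7 on the others. The arrays were scanned in 2 sessions: session 1 held 6 pre-irradiation and 6 day 7 arrays, and session 2 held pre-irradiation replicate 5, day 7 replicate 5 and every day 3 and day 5 array. In the separate fits of days 3 and 5, session and group can be told apart only through that 1 pre-irradiation array. Differences against it are given below as values within session 2. The number of arrays limits the precision. Blood cell markers with a probe were mostly well above background on at least 1 pre-irradiation array, as labelled for whole blood. That held for 5 of 5 erythroid, 7 of 7 NK, 7 of 7 monocyte and 5 of 5 T-cell genes. It held for 9 of 10 platelet, 6 of 8 neutrophil and 5 of 6 B-cell genes.

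Of FGB, FGG, ALB and TF, all expressed chiefly by the liver, only FGB was measurable. FGG was well above background on 1 of 24 arrays in the brighter of its 2 probes and on none in the other. ALB, the most abundant protein of plasma, was well above background once in each of 2 of its 3 probes, and TF, the iron carrier of plasma, on 2 arrays in 1 of its 3 probes. The signals of these 3 genes stayed between 2.96 and 86.0 over all arrays and probes, and no fold was computed for them. The 5 members with a tested probe were FGB, A2M, FN1, SERPINA1 and ORM1. FGB passed the filter only through its pre-irradiation arrays, so it had to differ between groups.

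**Figure D1:**
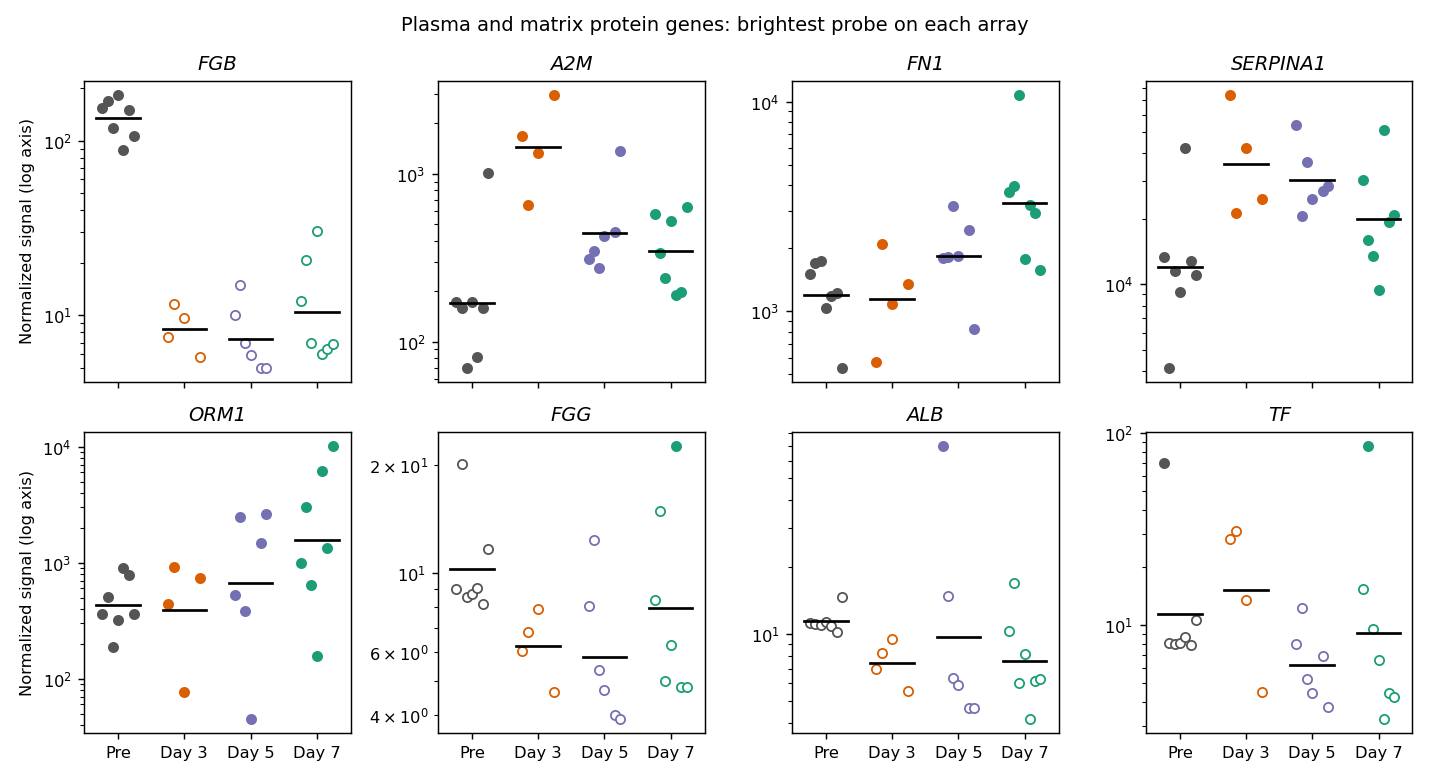
Normalized signal (log axis, different range in each panel) of the brightest probe of each of the 8 genes, 1 point per array, in the 4 groups; filled points were well above background, open points were not, and bars are the means of log2 signals. FGB was filled before irradiation and open afterwards, A2M was highest at day 3, FN1 and ORM1 reached their highest signals at day 7, and FGG, ALB and TF were open on nearly all arrays.

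FGB was well above background before irradiation only, so the filter that let it be tested left it no other direction than down. Before irradiation its brighter probe gave 87.9 in the lowest, 149.5 in the median and 183.1 in the highest of 7 arrays, all well above background. At day 3 the 4 arrays gave 7.51, 11.7, 9.73 and 5.76. The day 5 signals ran from 4.99 over a median of 6.40 to 15.02, and those of day 7 from 6.03 over 6.94 to 30.6. None of the 17 arrays after irradiation was well above background, and each lay below every pre-irradiation array. The signal was at least 4.90-fold lower at day 3, and at least 5.29-fold and 4.97-fold lower on days 5 and 7. For these bounds a later array entered with its FGB signal or, where that was lower, with the faintest signal that counted as well above background on it.

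On the log2 scale the fitted difference of FGB was −4.002 ± 0.25 (SE) at day 3, then −4.19 ± 0.27 and −3.68 ± 0.36 on days 5 and 7, values that depend on signals under background. With another background correction (normexp) they were −0.87, −0.16 and −1.01, and no longer called (limma adjusted p = 0.142, 0.812 and 0.254). With the local background capped first, a setting chosen after seeing the data, they were −1.15, −1.42 and −1.43 and called, so the size, the bounds above included, is that of the deposited background subtraction. It was lower in 4 of 4, 6 of 6 and 7 of 7 animals against their own earlier blood. Within session 2 the differences were −3.39, −3.58 and −3.87, and within session 1 that of day 7 was −3.64. The dimmer FGB probe, whose match lies a little further along the same strand, was well above background on no array. Its signals before irradiation nevertheless ran from 15.8 to 61.3, and afterwards from 4.02 to 19.4. The 2 probes correlated with r = 0.92 over the 24 arrays, which share their normalization.

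Red cell and B-cell markers were also lower on all 3 days. The summed signal of 5 erythroid genes with a probe, among them ALAS2, the first enzyme of heme synthesis in red cells, was 377500 to 755300 in the blood before irradiation. It was 29260 to 96270 on day 3 arrays, 3116 to 10820 on day 5 arrays and 2103 to 229100 on day 7 arrays. The summed signal of 6 B-cell genes ran from 27480 to 39060 on pre-irradiation arrays from 1425 to 4012 on those of day 3, from 1395 to 2783 on those of day 5 and from 2198 to 3980 on those of day 7. Their part in the FGB result was not tested. The B-cell transcription factor PAX5 was well above background on no array. Hepatocyte markers were mostly absent: APOC3, TTR, AHSG, CPS1 and HNF4A were well above background on no array in their brightest probe, and 3 of the 12 genes with a probe were so on any pre-irradiation array.

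Among the genes with the pattern most like that of FGB over the 24 arrays were AP1S1, a subunit of a clathrin adaptor (r = 0.95), and ART4, which carries the Dombrock blood group of red cells (r = 0.95). Their log2 differences at day 3 were −2.71 and −3.27. The arrays fall into those before and those after irradiation, and such an r mainly reflects that split.

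**Figure D2:**
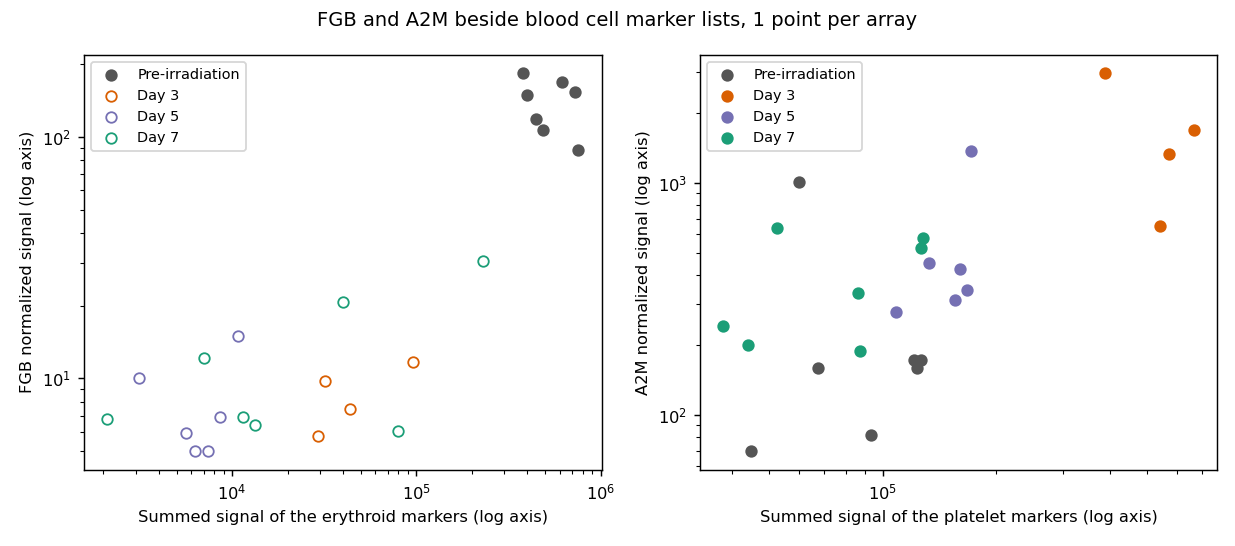
Left, FGB normalized signal against the summed signal of the erythroid markers; right, A2M normalized signal against the summed signal of the platelet markers; all axes are log, each point is 1 array, and open points were not well above background. The 7 pre-irradiation arrays lie at the upper right of the FGB panel apart from all others, and the 4 day 3 arrays at the right of the A2M panel, with platelet sums of 386500 to 666300.

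A2M, a broad inhibitor that traps proteases in plasma, was higher after irradiation, most at day 3. Before irradiation the signals were 69.7 in the lowest, 159.7 in the median and 1005 in the highest array. At day 3 they were 1688, 649.6, 1337 and 2959. At day 5 they ran from 276.2 over 383.8 to 1377, and at day 7 from 189.0 over 336.4 to 635.8. At day 3, 3 of the 4 arrays lay above every pre-irradiation array, whereas the groups overlapped on the later days, since pre-irradiation replicate 7 was itself at 1005.

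The A2M difference was 3.08 ± 0.63 on the log2 scale at day 3, an 8.43-fold higher signal. Day 5 gave 1.38 ± 0.54 (2.61-fold) and day 7 gave 1.01 ± 0.50 (2.02-fold). Every animal measured at day 3 and at day 5 was higher than in its own pre-irradiation blood (4 of 4 and 6 of 6), as were 6 of 7 at day 7; the exception was animal 7. That animal, a female, had the highest A2M signal at each of the 4 times: 1005, 2959, 1377 and 635.8. Within session 2 the differences were 4.15, 2.45 and 1.21 on the 3 days.

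Platelet markers were also higher at day 3 as a group, but within that day not in the order of A2M. The summed signal of 10 platelet genes had a median of 93010 before irradiation and of 555900, 158100 and 86170 on days 3, 5 and 7, and the day 3 arrays did not overlap those before irradiation. Tissue macrophage markers, among them the complement genes C1QA to C1QC and CD163, had a median sum of 14420 before irradiation and 22420 at day 3, with overlapping groups. Endothelial markers, 7 genes with a probe, had a median sum of 3946 before irradiation (3311 to 4652) and 7354 at day 3 (3817 to 10160), again with overlapping groups; 3 of the 7 were well above background on some pre-irradiation array and 4 on some day 3 array, and CDH5 and EMCN on none of the 24. Within day 3, animal 7 had the highest A2M signal with the lowest platelet sum (386470). The endothelial sums of day 3 ran in the order of A2M, from 10164 in animal 7 to 3817 in animal 2. Before irradiation animal 7, also highest in A2M, had an endothelial sum of 3716, under the median. The part of these cells in the A2M result was not tested. Most like A2M over the 24 arrays were ARHGAP18 (r = 0.82), which encodes a GTPase-activating protein, NCKAP1 (r = 0.80), a subunit of the WAVE complex that drives actin branching, and INPP4A (r = 0.79), a phosphoinositide phosphatase. Their log2 differences at day 3 were 1.03, 2.71 and 1.19.

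FN1, the adhesive glycoprotein of matrix and plasma that binds integrins, was higher at day 7 in its brighter probe. The signals before irradiation ran from 536.0 over 1223 to 1736. At day 3 they were 570.9, 2093, 1088 and 1349, within or near that range. At day 5 they ran from 821.9 over 1829 to 3193, and at day 7 from 1582 over 3227 to 10820. At day 7, 6 of 7 arrays lay above every pre-irradiation array, and the signal was higher than before in 7 of 7 animals; animal 3, a male, reached 10820.

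The log2 difference of that probe was −0.06 ± 0.38, 0.61 ± 0.32 and 1.46 ± 0.38 on days 3, 5 and 7, the last a 2.75-fold higher signal. At day 7 it was 1.46 within session 1 and 1.44 within session 2. The dimmer probe, on the spliced upstream stretch printed above, gave another order of days. Its signals were 41.8 to 70.3 before irradiation, with 5 of 7 arrays well above background, and 152.4, 141.5, 134.5 and 80.5 at day 3, all above every pre-irradiation array. The differences of this probe were 1.16 ± 0.20, 0.22 ± 0.19 and 0.64 ± 0.48 on the 3 days. Within session 2 they were 0.81, −0.12 and −0.74, and within session 1 that of day 7 was 0.88. At day 7 this probe was higher in 4 of 7 animals, and 2 arrays lay below every pre-irradiation array. Over the 24 arrays the FN1 probes correlated with r = 0.37, and the median signals were 1756 and 60.2. Which of them reports total FN1 RNA cannot be told from these arrays.

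Genes most like FN1, in its brighter probe, were TSTA3, an enzyme that makes GDP-fucose (r = 0.85), and LRRCC1 (r = 0.84) and KIAA0586 (r = 0.82), which encode centrosomal proteins. Their log2 differences at day 7 were 0.31, 0.83 and 0.51. The summed fibroblast markers, 4 genes with a probe, had medians of 216.3 before irradiation and 389.6 at day 7, with ranges of 89.9 to 590.2 and 222.6 to 2394. Tissue macrophage markers had a median sum of 24530 at day 7. The part of either in the FN1 signal was not tested.

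**Figure D3:**
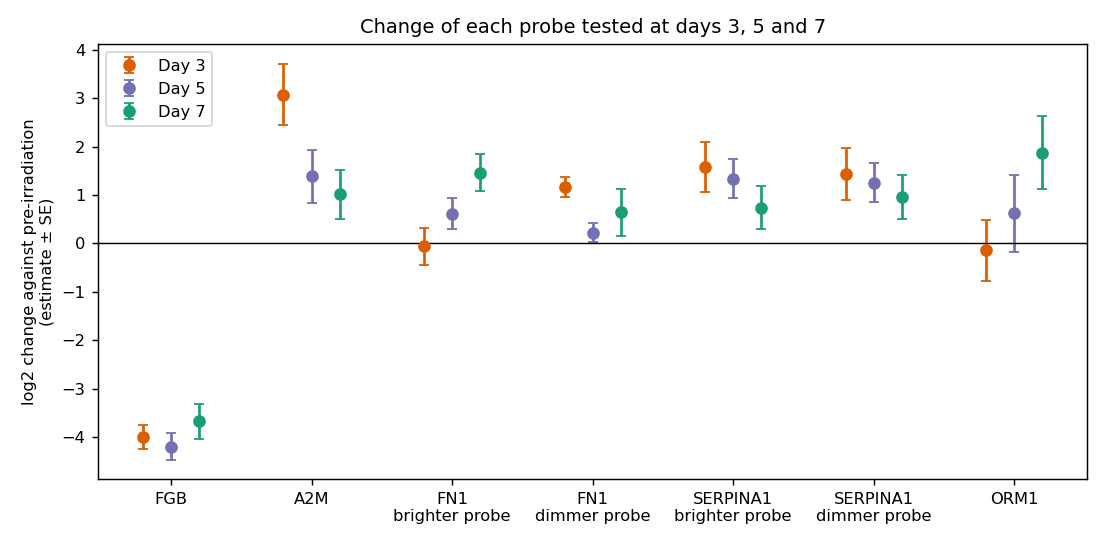
Log2 change of each member probe tested, estimate ± SE, at days 3, 5 and 7 against the 7 pre-irradiation arrays. FGB lies near −4 at all times (on signals under background after irradiation), A2M is highest at day 3 (3.08), and the brighter FN1 probe and ORM1 are highest at day 7 (1.46 and 1.88), while the dimmer FN1 probe is highest at day 3 (1.16).

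SERPINA1, whose product inhibits neutrophil elastase, was higher after irradiation in each animal against its own earlier blood, with groups that overlapped. Signals before irradiation ran from 4128 over 11520 to 42510. At day 3 they were 74310, 21250, 42183 and 24780. They ran from 20630 over 27630 to 54100 at day 5 and from 9463 over 19360 to 50930 at day 7. Pre-irradiation replicate 5 stood at 42510 while the other 6 were at most 13350, a level that every day 3 and day 5 array exceeded and that the lowest day 7 array did not reach.

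The SERPINA1 difference was 1.58 ± 0.52, 1.34 ± 0.41 and 0.74 ± 0.44 on the log2 scale on days 3, 5 and 7. The signal was higher than in the same animal's earlier blood in 4 of 4, 6 of 6 and 7 of 7 animals. Against the single pre-irradiation array of the same scan session, replicate 5, the day 3 and day 5 differences turned to −0.25 and −0.49, and that of day 7 was 0.26. Its second probe followed the first (r = 0.97 over 24 arrays), with differences of 1.43, 1.25 and 0.96. Among the genes most like SERPINA1 were HGSNAT (r = 0.82), a lysosomal enzyme of heparan sulfate breakdown, and HGF (r = 0.81), hepatocyte growth factor. Neutrophil markers had a median sum of 155900 before irradiation and 271400, 275200 and 266000 at days 3, 5 and 7, and monocyte markers 126300 and then 184700, 203400 and 205300. Their part in the SERPINA1 result was not tested.

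ORM1 was the member whose arrays spread most after irradiation, with an SD of log2 signals of 1.63, 2.23 and 2.05 on days 3, 5 and 7. Before irradiation the signals ran from 187.9 over 362.7 to 902.1. At day 3 they were 441.2, 925.6, 76.8 and 738.6. At day 5 they ran from 44.7 over 876.3 to 2616, and at day 7 from 156.6 over 1349 to 10170. At day 7, 5 of 7 arrays lay above every pre-irradiation array and 1 lay below all of them.

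That array was of animal 4, a male, whose ORM1 signal went from 319.0 before irradiation to 76.8, 44.7 and 156.6 at days 3, 5 and 7, the lowest of its group each time. In every other animal and at every later time measured, ORM1 was higher than before irradiation (3 of 3 animals at day 3, 5 of 5 at day 5 and 6 of 6 at day 7). The difference over all arrays was −0.14 ± 0.63, 0.62 ± 0.80 and 1.88 ± 0.75 on days 3, 5 and 7. Without the arrays of animal 4 these became 0.56, 1.33 and 2.36. Within session 2 they were −1.21, −0.44 and 2.77, and within session 1 that of day 7 was 1.73. The summed neutrophil markers differed between these arrays too. Animal 4 had the lowest sum of its group before irradiation (142400) and on days 3, 5 and 7 (227300, 128700 and 88220), and animal 7, with the highest ORM1 signal at day 7, had the highest sum of that day (323100). The order of the other animals differed: animal 1 had the highest sum at day 3 (484400) with an ORM1 signal of 441.2, the third of 4, and at day 7 a sum of 282580 with an ORM1 signal of 984.6, beside 265980 and 6148 in animal 5. Their part in the ORM1 result was not tested.

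The highest ORM1 signals at day 7 were 10170 and 6148 in females. Female arrays ran from 1349 to 10170 and male arrays from 156.6 to 2997, so they overlapped; before irradiation they ran from 362.7 to 902.1 and from 187.9 to 505.5. The log2 response at day 7 was larger in females by 1.60 ± 1.21 (limma interaction, adjusted p = 0.711, 3 females and 4 males). In that limma fit, none of the 4 members measured above background at day 7 passed an adjusted p of 0.05 between the sexes. Of all 11015 genes 0% did (822 at an unadjusted p under 0.05). The unadjusted limma p of these members ran from 0.208 (ORM1) to 0.934 (FN1). It is that of the brightest probe, and the fit had no term for the animal. The dimmer FN1 probe, for which no such p is given, had 71.2 to 362.4 in males and 32.2 to 41.9 in females at day 7. Before irradiation it had 51.1 to 61.0 in males and 41.8 to 70.3 in females. In this probe every male was above and every female below its own earlier signal. FGB, on no day 7 array well above background, cannot be compared. Most like ORM1 were FAM160A2 (r = 0.84), ADCY9 (r = 0.84), an adenylyl cyclase, and OFD1 (r = 0.79), a protein of centrioles and cilia, with log2 differences of 0.41, 0.72 and 0.49 at day 7.

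**Figure D4:**
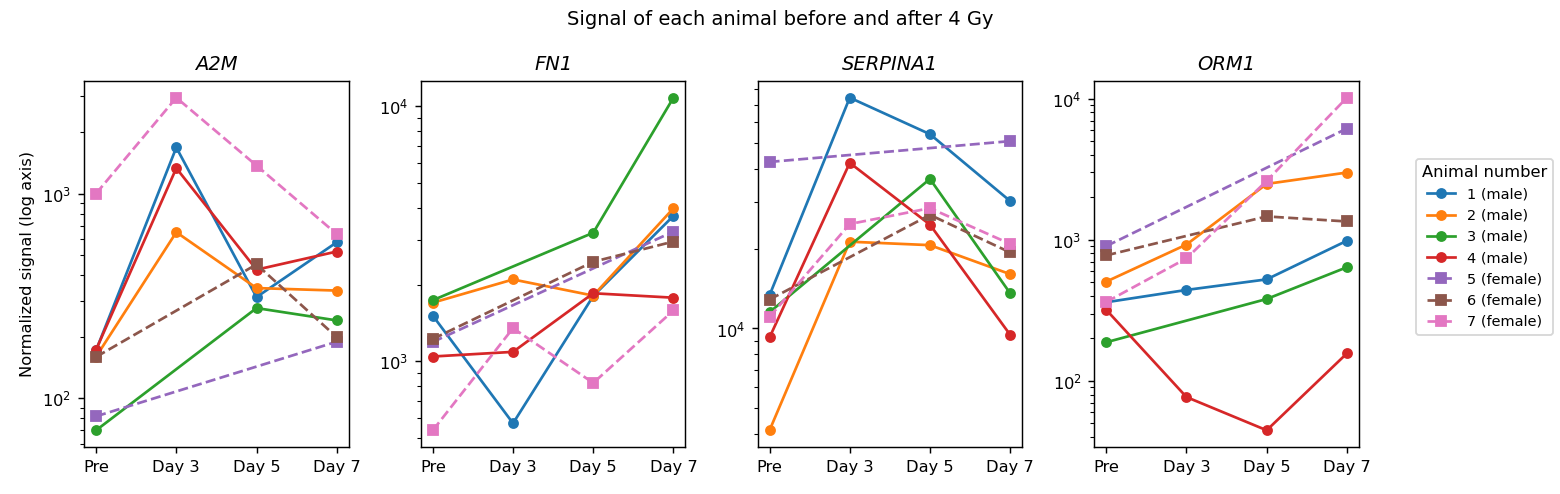
Normalized signal (log axis) of A2M, FN1 (brighter probe), SERPINA1 and ORM1 in each animal before irradiation and at days 3, 5 and 7; each line joins the arrays of 1 animal number, solid for males and dashed for females. Animal 7 is the highest in A2M at every time, and animal 4 is the lowest in ORM1 after irradiation (76.8, 44.7 and 156.6).

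The members did not move as 1 group over the arrays. After subtraction of group means, the strongest correlation between members was that of A2M and FN1 (r = −0.64), followed by FGB and SERPINA1 (r = −0.42, with FGB largely under background), and the other 8 pairs lay between −0.26 and 0.20. These are descriptions over 24 arrays that share their scaling.

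The calls of the fit across all probes are listed for the members because the same rule is used for the related genes below. They are no evidence about the members, which were chosen by these same signals, and FGB, which passed the filter through its pre-irradiation arrays alone, had to differ. A gene was called at a limma adjusted p under 0.005 in its brightest probe. At day 3, A2M was called higher and FGB lower, beside 5.95% higher and 7.58% lower of all 11012 genes. At day 5 only FGB, lower, was called among the 5 (6.24% of 11015 genes higher, 9.17% lower), and likewise at day 7 (2.67% higher, 7.22% lower). With the animal as a block, FGB alone was called at day 3, FGB, A2M and SERPINA1 at day 5, and FGB and FN1 at day 7. The A2M call at day 3 was kept in 7 of 18 alternatives that give a p, and leaving out any 1 animal other than animal 7 ended it. Its log2 difference nevertheless stayed between 2.86 and 3.44 in these 7 fits, and the adjusted limma p in the 6 that lost the call was 0.00633 to 0.0215.

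Related genes were taken from 5 lists of 176 genes in all: other plasma proteins, coagulation and fibrinolysis, extracellular matrix, receptors and proteases that act on these proteins, and regulators of the acute phase. Of these, 153 had a probe and 89 were tested. On day 3 arrays 21 were called higher and 4 lower, beside 5.95% and 7.58% of all 11012 genes. The counts were 13 and 6 for day 5 (6.24% and 9.17% of 11015 genes), and 10 and 5 for day 7 (2.67% and 7.22%). On each day the lower calls were a smaller share of the 89 than of all genes. Counted among the calls are APOE, ITGB3 and CTSG, for which the filter left the direction, as told below. Differences below are on the log2 scale ± SE unless given as a fold. The median log2 difference of the 89 was 0.96, 0.77 and 0.44 on the 3 days. That over all named genes was −0.01 on each, a value that the scaling to the median array keeps small. The lists were chosen with earlier results of these data known. Their counts and medians are therefore a description, and the p printed for their genes does not allow for that choice. With the animal as a block, 13 related genes were called at day 3 in place of 25, and with the scan session as a block 0 at day 3 (35 at an unadjusted limma p under 0.05) and 1 at day 5. Leaving out 1 animal left 4 to 13 called at day 7, the fewest without animal 1. Among the 10 platelet markers with a probe, CLU, ITGA2B and SPARC are also in these lists.

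Of 50 other plasma protein genes, 38 had a probe and 13 were tested; FGA, the third fibrinogen chain, HP (haptoglobin), ORM2, APOA1 and AMBP had no named probe. The acute phase genes CRP, SAA1, CP and SERPINA3 and the carrier TTR were too dim to be tested, each well above background on at most 2 arrays. At day 3, 3 of the 13 passed the test, all of them higher, beside 5.95% of all genes called higher. CLU (clusterin, a chaperone also stored in platelets) rose by 3.41 ± 0.46 (limma adjusted p = 0.000412) with all 4 arrays above every earlier one, and GSN (gelsolin, which severs actin) by 1.72 ± 0.19 (adjusted p = 0.000148). The third was APOE, an apolipoprotein of lipid transport. It was well above background on 0 of 7 pre-irradiation and 1 of 4 day 3 arrays, having passed the filter through later arrays only, so no size is given for it.

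At day 5 CLU was still higher by 2.13 ± 0.36 (limma adjusted p = 0.000541), while APOA2 and VTN fell. APOA2, an apolipoprotein of HDL, had a difference of −0.97 ± 0.32 at day 3, which was not called, and decreased by 1.64 ± 0.29 at day 5 (adjusted p = 0.000767) and by 1.96 ± 0.29 at day 7 (adjusted p = 0.000202), with every array after irradiation below all pre-irradiation ones. VTN (vitronectin) decreased by 0.97 ± 0.22 at day 5 (adjusted p = 0.00351). At day 7, of these 13, APOA2 was the only one called, beside 7.22% of all genes called lower. APOA2, at a mean log2 signal of 10.05, was the bulk of the summed hepatocyte markers before irradiation, whose median sum was 1087 then and 463.5 at day 7.

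Beside 5.95%, 6.24% and 2.67% of all genes called higher on the 3 days, coagulation genes were called in the upward direction alone. They numbered 6 of 18 tested at day 3 and then 4 and 3. Beside them, 9 of 10 platelet markers were called higher at day 3 and 3 at day 5, with median log2 differences of 3.01, 1.35 and 0.41 on days 3, 5 and 7, and their part in the coagulation list was not tested. VWF, the platelet-binding factor of endothelium and megakaryocytes, rose by 3.04 ± 0.40 at day 3 (limma adjusted p = 0.000346), and F13A1, the clot-stabilizing transglutaminase chain, by 2.18 ± 0.30 (adjusted p = 0.000419). F12, which starts the contact pathway, rose at days 3 and 7 (1.63 ± 0.22 and 1.70 ± 0.25) and THBD (thrombomodulin) at day 5 (1.56 ± 0.35, adjusted p = 0.00345). The genes of the liver's own clotting factors F2, F7, F9, F10 and F11 and of plasminogen (PLG) were too dim to be tested.

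Of 21 matrix genes tested, 4 rose and 1 fell at day 3, beside 5.95% higher and 7.58% lower of all genes. At each of days 5 and 7, 1 rose and 1 fell. These are near the shares over all genes, 6.24% higher and 9.17% lower at day 5 and 2.67% and 7.22% at day 7. ECM1 rose by 2.40 ± 0.28 (limma adjusted p = 0.000167) and LAMB2, a laminin chain, by 1.56 ± 0.34 (adjusted p = 0.00456) at day 3. FBLN5, a fibulin of elastic fibres, fell, with log2 differences of −1.88 ± 0.29 at day 3 and −1.18 ± 0.22 at day 5. COL1A2, a chain of type I collagen, rose by 2.35 ± 0.48 at day 5 and 2.48 ± 0.57 at day 7, above all pre-irradiation arrays on both days, although only 4 of 7 of those were well above background. COL6A2, a chain of type VI collagen, was 1.98 ± 0.36 lower on the log2 scale at day 7, a 3.95-fold lower signal.

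Of 18 receptor and protease genes tested, 4 rose on each day, and 2 fell at day 3 and 3 at each of days 5 and 7. Over all genes 5.95%, 6.24% and 2.67% were called higher on the 3 days and 7.58%, 9.17% and 7.22% lower. ITGA2B and ITGB3, the 2 chains of the platelet fibrinogen receptor, rose at day 3, ITGA2B by 3.14 ± 0.38 (limma adjusted p = 0.000214) and ITGB3 to an at least 4.29-fold higher signal. ITGB3 was well above background on no pre-irradiation array and passed the filter through later arrays alone, so higher was the direction the filter left it. TFR2, a transferrin receptor of hepatocytes and erythroid precursors, fell on all 3 days, with log2 differences of −2.91 ± 0.43, −4.43 ± 0.40 and −3.99 ± 0.67; only 3 of 6 day 5 and 3 of 7 day 7 arrays were well above background, so the later values rest partly on signals under background. CTSG and ELANE, granule proteases of neutrophil precursors that SERPINA1 and its relatives inhibit, also fell. CTSG was at least 2.57-fold lower at day 3 and at least 2.78-fold lower at day 5. It passed the filter through the pre-irradiation arrays, 5 of 7 well above background against 1 of all later ones, so lower was the direction left to it. ELANE was called lower on days 5 and 7, when 1 of 6 and 1 of 7 arrays were well above background (3 of 7 before irradiation), so no fold is given.

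Among 19 acute phase regulators tested, IL1B rose by 2.21 ± 0.41 at day 3 (limma adjusted p = 0.0021) and 1.97 ± 0.28 at day 5, and TNF by 1.12 ± 0.22 and 0.995 ± 0.20. IL1R1 and JAK1 rose at day 7, by 1.51 ± 0.34 and 1.10 ± 0.25. FOXA3, a transcription factor of liver, fell at day 3 to an at least 1.499-fold lower signal. IL6 and the hepatocyte factor HNF4A were too dim to be tested. Within session 2, in which the single pre-irradiation array is replicate 5, each of the day 3 and day 5 changes named in these 5 lists kept its sign.

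**Figure D5:**
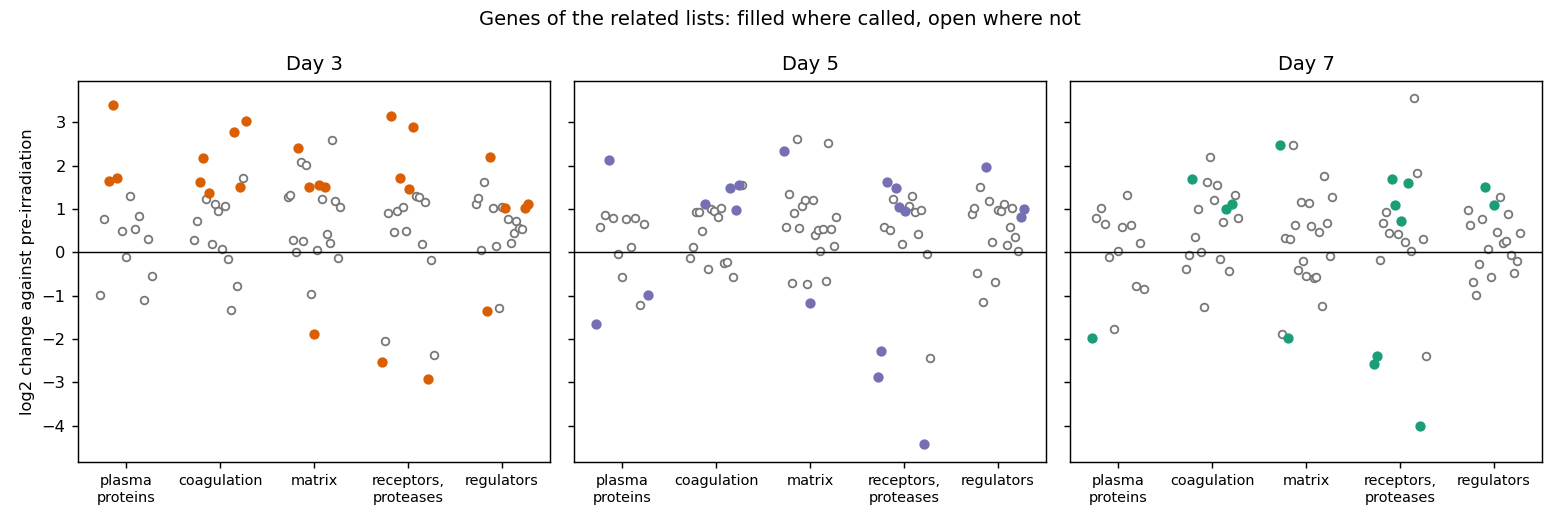
Log2 change of the 89 related genes tested at days 3, 5 and 7, by list, 1 point per gene; filled points were called at a limma adjusted p under 0.005 and open points were not. At day 3, 21 filled points lie above 0 and 4 below, and the lowest point at days 5 and 7 is the transferrin receptor gene TFR2.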

How the data were processed

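Whole-blood RNA was measured on 24 one-colour Agilent arrays. The authors' scanner files hold an intensity per spot (gProcessedSignal, from Agilent Feature Extraction, version 10.7 per the labels and 12.0.2.2 per the file headers), with the local background subtracted and gradients removed. For 18497 probes, none of FGB, the authors also deposited normalized log2 values, which differ from log2 of that intensity by a constant on each array. The labels and files give a rhesus design (rheMac2), while the methods name a human array.

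Here log2 intensities were used, non-uniform and population-outlier spots were dropped, spots of a probe were averaged, and each array was shifted to the median array over the tested probes. A gene is its tested probe with the highest mean signal. Day 3, 5 and 7 arrays were each fitted against those from before irradiation with limma 3.58.1 in R 4.3.3 (two-sided, Benjamini-Hochberg adjusted p under 0.005 over all probes tested), checked on simulated data. Figures used Python 3.11.15 and matplotlib 3.10.9. The members and lists were chosen with earlier results of these data known. Named from the lists were at most the 5 called genes with the largest absolute log2 change, and, for each member tested, the 3 genes with the highest Pearson r. Some genes that this rule selects are not reported here. Symbols came from the scanner files or, by gene number (539 probes) or accession (704 probes), from RefSeq.

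Replicate numbers mark animals: with group means taken out, each later array correlated with the pre-irradiation array of its own number at r between 0.129 and 0.458, and the median r with other numbers was negative. The main fit has no block, and the study's methods name none. Nothing was printed from the authors' own comparisons. The alternatives were other scalings, background correction, filters, probe rules, blocks by animal, slide and scan session, and leaving out each replicate number.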

Additional observations from a re-analysis of the deposited data

Results flagged for a closer look

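Of 20 groups of arrays checked for a value far from the rest (5 members in 4 groups), 2 held one; chance alone gives about 1 in 20. Both were A2M signals of animal 7: pre-irradiation replicate 7 at 1005, where the next array was at 173.0, and day 5 replicate 7 at 1377, where the next was at 451.9. Without the arrays of animal 7 the A2M difference was 3.16, 1.48 and 1.29 on the log2 scale on days 3, 5 and 7.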

How the results depend on the processing

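The members called numbered 2, 1 and 1 on days 3, 5 and 7, and the related genes called 25, 19 and 15. With quantile or 75th percentile scaling, with any probe of a gene counted, and with normexp after capping the local background (chosen after seeing the data), all 6 counts stayed within 1.5 times of these. Normexp on the local background as measured gave 0 members called on each day and 8, 0 and 0 related genes (3, 1 and 3 members and 38, 21 and 26 related genes at an unadjusted limma p under 0.05). A few spots of very high local background raised the lowest 5% of corrected signals to between 293.0 and 1063 on 9 of 24 arrays, against at most 104.0 on the others. The authors' normalized values and the filter at 12 arrays hold no FGB probe, which left 1, 0 and 0 members called. Without a filter 1 member was called at day 3.

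With the animal as a replicate block, 1, 3 and 2 members were called at days 3, 5 and 7, and 13 related genes at day 3. It changed no other count by over 1.5 times. The slide block gave 0 members and 0 related genes at day 3 (2 and 35 at an unadjusted limma p under 0.05) and 2 members at day 7; no slide holds both day 5 and pre-irradiation arrays, so it could not be fitted there. The scan session block gave 1 member and 0 related genes at day 3 (2 and 35 unadjusted) and 1 related gene at day 5. Session 1 alone, added after seeing the data, gave 8 related genes at day 7, and 1 fit of all groups gave 26. Without each replicate number in turn, the members called were 1 to 2 at day 3, 1 to 2 at day 5 and 1 on day 7 in each case. The related genes called were then 13 to 24 at day 3 (13 without replicate 4, 15 without replicate 1 or 7), 11 to 18 at day 5 (11 without replicate 1, 12 without 4 or 7) and 4 to 13 at day 7 (4 without replicate 1, 5 without 2 or 7, 7 without 3, 8 without 5). The sex comparison had 0 members called under every alternative run. Signals under background limit FGB after irradiation to a bound.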
